A study of Mus musculus with 12 samples.

Results

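The genes described here are 33 mouse genes that act in DNA replication, in the G2/M transition and in mitosis, measured in neuronal cultures that had all received an antimitotic drug. They were taken by name: a probe set of the array counted when its annotation gave exactly 1 of the 33 symbols, and the probe set with the highest mean over the 12 arrays stood for its gene. This gave a probe set to 32 of the 33 genes, out of 18193 genes with such a probe set on the array; Ccnb1, which encodes cyclin B1, had none.

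The cultures were cerebellar granule cells of lethargic mice, strain 129/SvJ, taken at postnatal day 7. Lethargic mice are mutant in Cacnb4, which encodes a calcium channel subunit named β4, so every group shared this background. For 12 hours after plating the cells were exposed to lentivirus carrying β4a, β4b, β4e (splice variants of that subunit) or, as control, eGFP, with 3 arrays in each of the 4 groups. According to the labels all cultures, the controls included, received Ara-C 24 hours after plating (the concentration is given as 10 mM), were kept in medium with serum and 5 mM KCl, and were lysed after 9 days in vitro. The labels number the arrays of each group 1 to 3 and do not say whether a number stands for a litter, a preparation or a day. They also do not say that arrays of a group came from separate cultures or animals, so p-values here measure the spread between these samples, which may be technical.

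A dividing cell passes through G1, S, G2 and M phase. Origins of replication are licensed in G1, when Cdc6 and Cdt1 load the ring of Mcm helicase subunits onto DNA, and cyclin E with its kinase then starts S phase. Cyclin A, cyclin B and Cdk1 carry the cell into mitosis, where kinases, kinetochore proteins and the anaphase-promoting complex order the separation of chromosomes. Factors of the E2F family drive the genes of S phase, and the mitotic genes are repressed in resting cells through sites known as the cell cycle genes homology region (CHR), often near CCAAT boxes. Granule cell progenitors divide in the external layer of the young cerebellum and leave the cycle as they become neurons, whereas glia and fibroblasts in such cultures can go on dividing. Ara-C (cytosine arabinoside) is a nucleoside that, once phosphorylated, is built into new DNA and stops its extension, and it is used to hold down those dividing cells.

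The part of promoter sequence in the differences between replicate numbers was not tested. The promoters of the 5 members with the smallest p among replicate numbers are shown as a description. Each is a stretch of 300 bases, 250 before and 50 after the start of the gene, from RefSeq on build GRCm38.p6, written 5′ to 3′ on the strand of the gene. Capitals mark 3 kinds of motif on either strand: E2F-type sites (the letters TTGGCGC with the variants spelled TTCCCGC in the first case, then TTCGCGC in the second, then TTGCCGC in the last), the CHR with the letters TTTGAA, and the CCAAT box. The Mcm6 promoter lies at chr1:128359656-128359955, minus strand, that of Cdt1 at chr8:122567765-122568064, plus strand, that of Cdc20 at chr4:118437294-118437593, minus strand, that of Rrm2 at chr12:24708004-24708303, plus strand, and that of Ccne1 at chr7:38107441-38107740, minus strand.
Mcm6: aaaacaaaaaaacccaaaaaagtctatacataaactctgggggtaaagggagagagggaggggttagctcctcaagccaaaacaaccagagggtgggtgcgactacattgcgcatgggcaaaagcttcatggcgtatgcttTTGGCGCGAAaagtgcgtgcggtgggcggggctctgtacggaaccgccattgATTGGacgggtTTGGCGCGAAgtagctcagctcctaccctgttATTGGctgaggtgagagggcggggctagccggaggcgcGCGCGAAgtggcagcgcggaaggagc
Cdt1: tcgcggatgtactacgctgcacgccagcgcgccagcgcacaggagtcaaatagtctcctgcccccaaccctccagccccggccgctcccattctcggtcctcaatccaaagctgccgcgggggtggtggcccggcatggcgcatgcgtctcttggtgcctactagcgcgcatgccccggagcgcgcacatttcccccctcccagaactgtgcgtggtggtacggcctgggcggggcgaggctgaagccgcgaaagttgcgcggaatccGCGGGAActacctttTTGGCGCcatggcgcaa
Cdc20: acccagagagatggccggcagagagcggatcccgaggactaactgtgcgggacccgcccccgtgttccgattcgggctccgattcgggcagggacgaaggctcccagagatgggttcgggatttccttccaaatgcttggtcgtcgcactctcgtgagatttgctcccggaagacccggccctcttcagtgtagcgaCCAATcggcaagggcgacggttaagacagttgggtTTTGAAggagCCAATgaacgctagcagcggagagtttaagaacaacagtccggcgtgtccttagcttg
Rrm2: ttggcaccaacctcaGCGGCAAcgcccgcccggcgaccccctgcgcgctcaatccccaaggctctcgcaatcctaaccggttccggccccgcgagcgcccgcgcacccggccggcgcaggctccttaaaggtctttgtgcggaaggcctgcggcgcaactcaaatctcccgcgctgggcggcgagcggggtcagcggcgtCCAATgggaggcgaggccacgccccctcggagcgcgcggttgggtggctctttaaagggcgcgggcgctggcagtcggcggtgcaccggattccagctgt
Ccne1: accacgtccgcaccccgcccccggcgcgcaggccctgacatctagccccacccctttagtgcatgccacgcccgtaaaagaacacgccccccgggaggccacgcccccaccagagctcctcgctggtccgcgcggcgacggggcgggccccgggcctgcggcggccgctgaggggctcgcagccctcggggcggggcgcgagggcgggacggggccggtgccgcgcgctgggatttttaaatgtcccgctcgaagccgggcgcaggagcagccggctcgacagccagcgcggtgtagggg

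The Mcm6 promoter held 5 E2F-type matches and 2 CCAAT matches, and 4 of the E2F-type matches lay in 2 pairs that shared bases with each other. Cdt1 held 2 E2F-type matches and neither of the other motifs. The promoter of Cdc20, a mitotic gene, held 1 CHR and 2 CCAAT matches and no E2F-type match, and that of Rrm2 held 1 E2F-type and 1 CCAAT match. None of these letters was found in the window of Ccne1. Among the 30 promoters that matched 29 of the 33 members, 12 held an E2F-type match (40.0%), 13 the CHR letters (43.3%) and 24 CCAAT (80.0%). Over all 32851 promoters of the same length the shares were 9.57%, 17.9% and 37.4%. Ccne2, Ccna2, Mcm4 and Aurkb had no entry in the table. A match describes letters in a window and is not a measured binding site.

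The values are log2 intensities, whose median on an array lay between 3.84 and 3.90 in all 12, and a value of 4 was used as the line below which a probe set was taken as dim. All 11 measured markers of mature granule cells were above 4 on every array, and of the 7 measured progenitor markers 3 were above 4 on every array (Ptch1, Gli2 and Sfrp1), 3 were below it on every array (Atoh1, Gli1 and Hhip) and Mycn lay on both sides. The 3 probe sets of Cacnb4 read 9.41 to 12.2 in the groups that received a variant and 9.47 to 12.2 in eGFP; their place relative to the mutation and to the viral inserts is not given in the sources used here, so they do not check the labels. Astrocyte markers were also present: all 11 passed the filter on dim probe sets. Arrays that shared a replicate number resembled each other more than arrays that shared a construct. Between the 3 replicate numbers lay 72.6% of the summed squared deviations of the 32 cell cycle genes, and between the 4 groups 9.59%. For all 23044 tested probe sets the shares were 76% and 10.5%. The eGFP array of replicate 2 stood low for many of the 32 genes. The differences of Mcm6 from eGFP are given with and without it. So are the counts of the 32 genes above 0 against eGFP and for replicate 1 minus replicate 2, while other counts include it.

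By the highest probe set of each gene, genes of mitosis were mostly dim, and genes of replication licensing mostly were not. The mean over the 12 arrays was below 4 for 15 of the 32 genes (46.9%), against 42.1% of all genes with 1 probe set each. All 12 arrays were below 4 for 13 of the 32, and all 12 were above 4 for 11 of the 32 (34.4%), against 52.1% of all genes. A value below 4 is a dim probe set and does not show that the transcript was absent. In these bulk samples fewer cells of a type and less RNA per cell cannot be told apart. Single arrays had 13 to 19 of the 32 genes below 4, and the 19 belonged to the eGFP array of replicate 2.

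**Figure D1:**
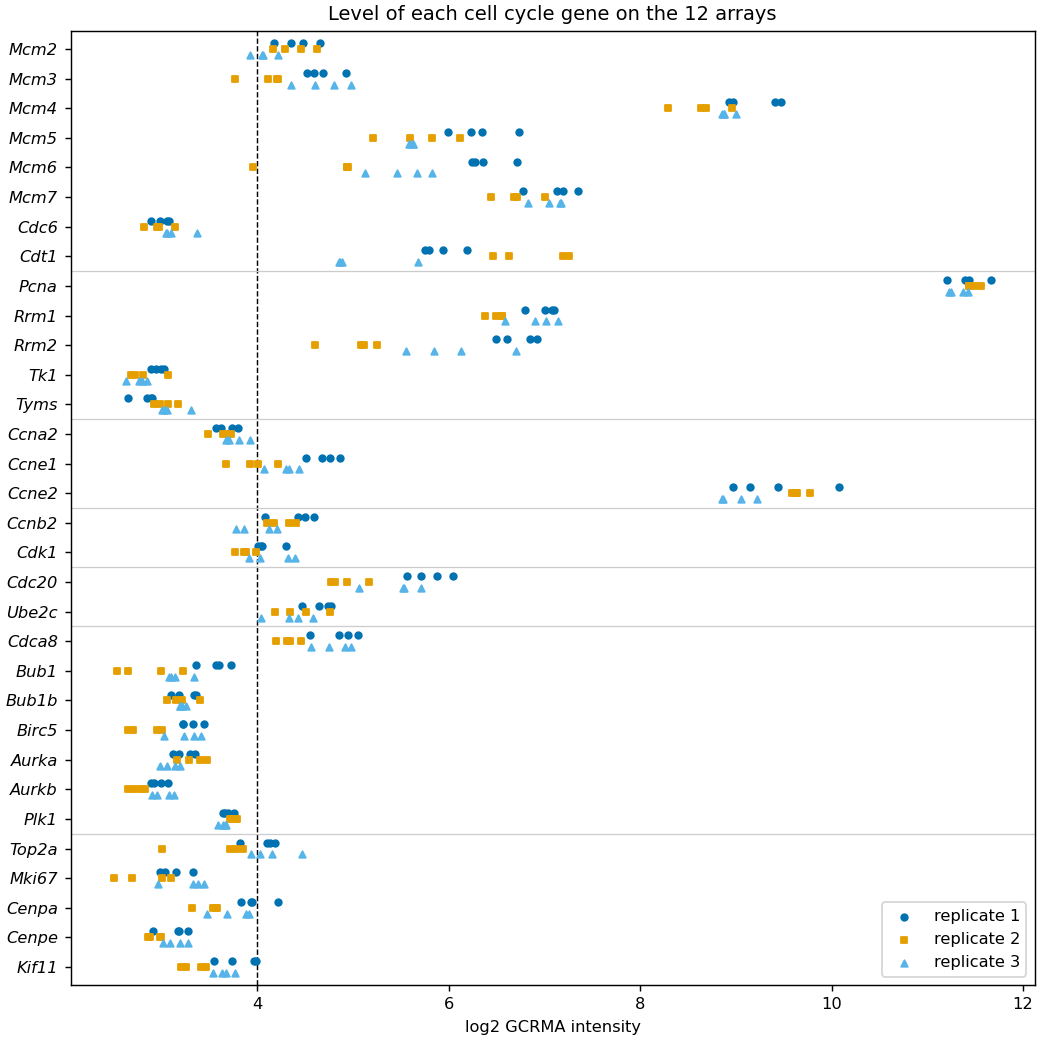
Level of the 32 measured cell cycle genes on the 12 arrays (x axis, log2 GCRMA intensity; 1 row per gene, grouped by role from licensing at the top to centromere and spindle at the bottom; point shape and colour give the replicate number; dashed line at 4). The 5 genes of the bottom group have means below 4, and Pcna lies between 11.2 and 11.7.

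Of the 5 genes of centromere, spindle and chromosome structure, all had a mean below 4. Top2a, the topoisomerase that untangles sister chromatids, read 3.003 to 4.47 over the 12 arrays and was the member of this group with the most arrays above 4, at 6. Cenpa, the histone variant of the centromere, read 3.32 to 4.22, with 1 array above the line. Mki67, the Ki-67 protein of the chromosome surface and a standard marker of dividing cells, read 2.51 to 3.44. Below 4 on every array were also Cenpe, a kinesin of the kinetochore (2.85 to 3.28), and Kif11, the motor that separates spindle poles (3.20 to 3.98).

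Among the 7 mitotic kinases, checkpoint and chromosomal passenger genes, 6 were below 4 on every array. Bub1 and Bub1b, kinases of the spindle checkpoint, read 2.53 to 3.72 and 3.06 to 3.40. Aurka and Aurkb, the Aurora kinases of spindle poles and of the passenger complex, read 2.99 to 3.48 and 2.65 to 3.12. Plk1, the Polo kinase of mitotic entry, read 3.59 to 3.78, and Birc5, the passenger protein survivin, 2.65 to 3.44. Cdca8, the passenger protein borealin, was the exception and read 4.19 to 5.05, above the line on every array. This holds for its highest probe set. Its other probe sets averaged 3.93 and 2.91, below the line.

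Both measured genes of the G2/M switch lay close to the line. Cdk1, the kinase of mitotic entry, read 3.77 to 4.39, and Ccnb2, cyclin B2, 3.77 to 4.59. The genes of mitotic exit were above it on all 12 arrays: Cdc20, which activates the anaphase-promoting complex, read 4.77 to 6.05, and Ube2c, the ubiquitin-conjugating enzyme of that complex, 4.04 to 4.77. For Cdc20 this holds for the highest probe set, and its other probe sets averaged 4.06 and 3.20.

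Of the 8 licensing genes, 1 had a mean below 4. This was Cdc6, a loader of the Mcm ring, at 2.82 to 3.37. Mcm4 and Mcm7, subunits of that ring, were among the 6 genes with the highest probe set values. Mcm4 read 8.97, 9.47, 8.93 and 9.41 in replicate 1, 8.69, 8.64, 8.96 and 8.29 in replicate 2 and 8.88, 9.01, 8.88 and 8.85 in replicate 3; here and below, 4 values of a replicate number are those of β4a, β4b, β4e and eGFP in this order. Mcm7 read 6.78, 7.13, 7.35 and 7.20 in replicate 1, 6.69, 7.003, 6.71 and 6.44 in replicate 2 and 7.18, 7.17, 6.83 and 7.05 in replicate 3. The arrays of the 3 replicate numbers overlapped for both. Mcm2, Mcm3 and Cdt1 had their lowest array at 3.93, 3.76 and 4.85. These levels are those of the highest probe set of each gene. Other probe sets averaged 6.16 for Mcm4, 3.54 and 3.18 for Mcm5 and 2.88 to 3.83 for Mcm3.

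The S phase cyclins and the nucleotide genes were split. Ccne2, the second cyclin E, read 8.97, 10.07, 9.14 and 9.44 in replicate 1, 9.59, 9.64, 9.78 and 9.62 in replicate 2 and 8.86, 8.86, 9.22 and 9.05 in replicate 3. Every array of replicate 2 was above every array of replicate 3, and replicate 1 overlapped both. Pcna, the sliding clamp of DNA polymerase, read 11.66, 11.43, 11.21 and 11.40 in replicate 1, 11.43, 11.56, 11.44 and 11.49 in replicate 2 and 11.37, 11.25, 11.42 and 11.23 in replicate 3. Here too every array of replicate 2 was above every array of replicate 3, by a narrow gap, and replicate 1 overlapped both. Rrm1 and Rrm2, the subunits of ribonucleotide reductase, were above 4 on every array. Tk1 (thymidine kinase of the cytosol), Tyms (thymidylate synthase) and Ccna2 (cyclin A2) were below 4 on every array, at 2.63 to 3.06, 2.65 to 3.30 and 3.49 to 3.92.

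The study's own comparison sets each β4 variant against eGFP. No cell cycle gene passed it. The filter (above 4 on at least 3 of the 12 arrays) let 18 of the 32 genes into the test, and 0 of the 18 had an adjusted p under 0.05 for β4a, β4b, β4e, the mean of the 3 variants or any difference among the 4 groups (limma, Benjamini-Hochberg over 23044 probe sets). The share called over all tested probe sets was 0% in each of these tests. At an unadjusted p under 0.05 the test found 0 of the 18 genes and, over all probe sets, 363 for β4a, 607 for β4b, 83 for β4e, 467 for the mean and 175 for any difference. With the replicate number as a block, 0 of the 18 passed as well, and the share called over all probe sets was 0.013% for β4a, 0.013% for β4b, 0% for β4e, 0.0217% for the mean and 0% for any difference. At an unadjusted p under 0.05 this blocked fit found 1, 3, 2, 1 and 2 of the 18 genes in these 5 tests (5.56%, 16.7%, 11.1%, 5.56% and 11.1%). Over all tested genes with 1 probe set each the shares were 11.6%, 16.4%, 5.15%, 14.5% and 9.07%.

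**Figure D2:**
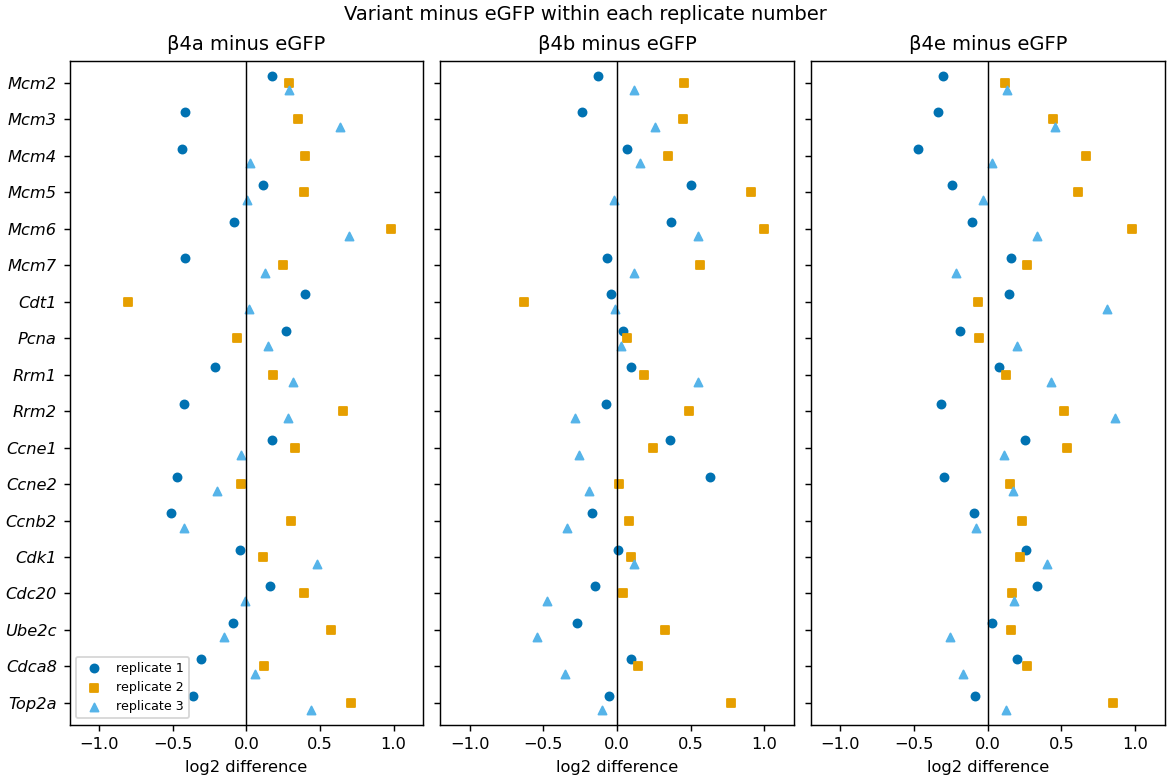
Log2 difference of each variant from eGFP within a replicate number for the 18 tested genes (x axis, log2 difference; 1 panel per variant; point shape and colour give the replicate number). In replicate 2 the points lie right of 0 for 15 genes with β4a, 17 with β4b and 16 with β4e.

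The genes with the smallest p in the blocked fit were read one by one. Mcm6 is the Mcm subunit that came up for all 3 variants. It read 6.27, 4.94 and 5.82 with β4a, 6.72, 4.95 and 5.67 with β4b and 6.25, 4.93 and 5.46 with β4e, against 6.35, 3.95 and 5.13 with eGFP, in replicates 1 to 3. The groups overlapped, and the eGFP array of replicate 2 was the lowest of the 12. The log2 differences of Mcm6 from eGFP were 0.53 ± 0.19 for β4a, 0.64 ± 0.19 for β4b and 0.40 ± 0.19 for β4e (SE of the blocked fit), with adjusted p of 0.262, 0.146 and 0.892 from limma. Without the eGFP array of replicate 2 they were 0.30, 0.40 and 0.17 with the block and -0.06, 0.04 and -0.19 without it. In the fit without the block 2 of the 3 thus changed sign. There, leaving out this array compares unequal sets of replicate numbers, and Mcm6 was low in all arrays of replicate 2. For β4e the blocked value was 0.63 without the eGFP array of replicate 1.

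For β4b, Mcm5 and Rrm1 followed. Mcm5, another Mcm subunit, read 6.74, 6.12 and 5.60 with β4b, against 6.23, 5.21 and 5.62 with eGFP. The difference was 0.46 ± 0.18 with an adjusted p of 0.211 (limma, replicate block). The groups overlapped, and within replicate 3 the arrays differed by -0.02. The blocked value for Mcm5 was 0.27 without the eGFP array of replicate 2. Rrm1 read 7.10, 6.55 and 7.14 with β4b, against 7.01, 6.37 and 6.59 with eGFP. Its difference of 0.27 ± 0.12 had an adjusted p of 0.248 (limma, replicate block), and the β4b array was the higher one in 3 of 3 replicate numbers. The blocked value for Rrm1 was 0.15 without the eGFP array of replicate 3.

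For β4a, Mcm2 read 4.66, 4.45 and 4.22 with β4a, against 4.48, 4.17 and 3.93 with eGFP. The β4a array was higher in 3 of 3 replicate numbers, while the groups overlapped, and the difference was 0.25 ± 0.12 (adjusted p = 0.37, limma, replicate block). The blocked value for Mcm2 was 0.17 without the eGFP array of replicate 2. Cdk1 read 4.002, 3.88 and 4.39 with β4a and 4.30, 3.98 and 4.32 with β4e, against 4.04, 3.77 and 3.91 with eGFP. Its differences were 0.18 ± 0.11 for β4a and 0.29 ± 0.11 for β4e, with adjusted p of 0.453 and 0.878 (limma, replicate block). The β4e array was higher in 3 of 3 replicate numbers and the β4a array in 2 of 3, the groups overlapped, and several of these values lie below the line of 4. For β4a the blocked value of Cdk1 was 0.06 without the β4a array of replicate 3. Ccne1, the first cyclin E, read 4.75, 4.21 and 4.44 with β4e, against 4.50, 3.67 and 4.33 with eGFP. The β4e array was higher in 3 of 3 replicate numbers, while the groups overlapped, and the difference of 0.30 ± 0.13 had an adjusted p of 0.892 (limma, replicate block). The blocked value for Ccne1 was 0.21 without the eGFP array of replicate 2.

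Over all 32 genes more differences lay above 0 than below it in the 3 comparisons, which share their eGFP arrays. The difference from eGFP was above 0 for 21 of 32 genes with β4a (median 0.10), for 22 with β4b (median 0.06) and for 24 with β4e (median 0.09). Of all 18193 genes, 51.1%, 48.7% and 54.7% were above 0. Without any array of replicate 2 the counts were 20 for β4a, 15 for β4b and 17 for β4e, with medians of 0.04, -0.01 and 0.01. Without the eGFP array of replicate 2 alone they were 9, 15 and 12, with medians of -0.06, -0.05 and -0.06; this leaves the variants' arrays of replicate 2 without an eGFP array of their number, so that it compares unequal sets of replicate numbers. Within replicate numbers the counts differed too. In replicate 2 the medians over the 32 genes were 0.19 for β4a, 0.18 for β4b and 0.19 for β4e, with 23, 29 and 25 genes above 0. In replicate 1 they were -0.10, 0.02 and -0.08, with 10, 18 and 12 genes above 0. In replicate 3 they were 0.07, -0.05 and 0.12, with 23, 9 and 20 genes above 0.

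The share of the 32 genes with the same sign in all 3 replicate numbers was near or below that of all genes. With β4a 3 of the 32 genes were higher and 3 lower in all 3 replicate numbers (9.38% each). With β4b 5 were higher and 2 lower (15.6% and 6.25%), and with β4e 5 and 2 (15.6% and 6.25%). Of all genes 14.8%, 17.6% and 15.5% were higher and 14%, 16.9% and 11.2% lower in all 3. The eGFP array of replicate 2, from which the 3 differences of that replicate number are taken, had the lowest value of its 4 arrays for Rrm2 (4.60), Mcm6 (3.95) and Top2a (3.003). It also had the lowest summed level of the 11 astrocyte markers, 92.1 on the log2 scale against 97.5 to 115 on the other 11 arrays. The part of those cells in the cell cycle values was not tested.

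Most of the tested genes differed between replicate numbers. Each number holds 1 array of every group, and the contrasts below come from a fit of group and replicate number together. Any difference among the 3 replicate numbers was called for 15 of the 18 tested genes, all but Mcm7, Ube2c and Pcna, where 65.2% of all tested probe sets were called. Replicate 1 against replicate 2 called 10 genes higher and 1, Cdt1, lower, with 29% and 24.2% of all probe sets called in these directions. Over tested genes with 1 probe set each the shares were 33.9% higher and 16.4% lower. Replicate 1 against replicate 3 called 8 genes higher and 0 lower (28.5% and 19.8% of all probe sets), and replicate 2 against replicate 3 called 3 higher and 9 lower (16.7% and 15.7%). For these pairs and for any difference the shares are over probe sets, while each gene stands by its highest probe set. The shares are therefore not like for like. Genes that passed the filter through the arrays of 1 replicate number had to differ, so these counts of tested genes are a description.

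**Figure D3:**
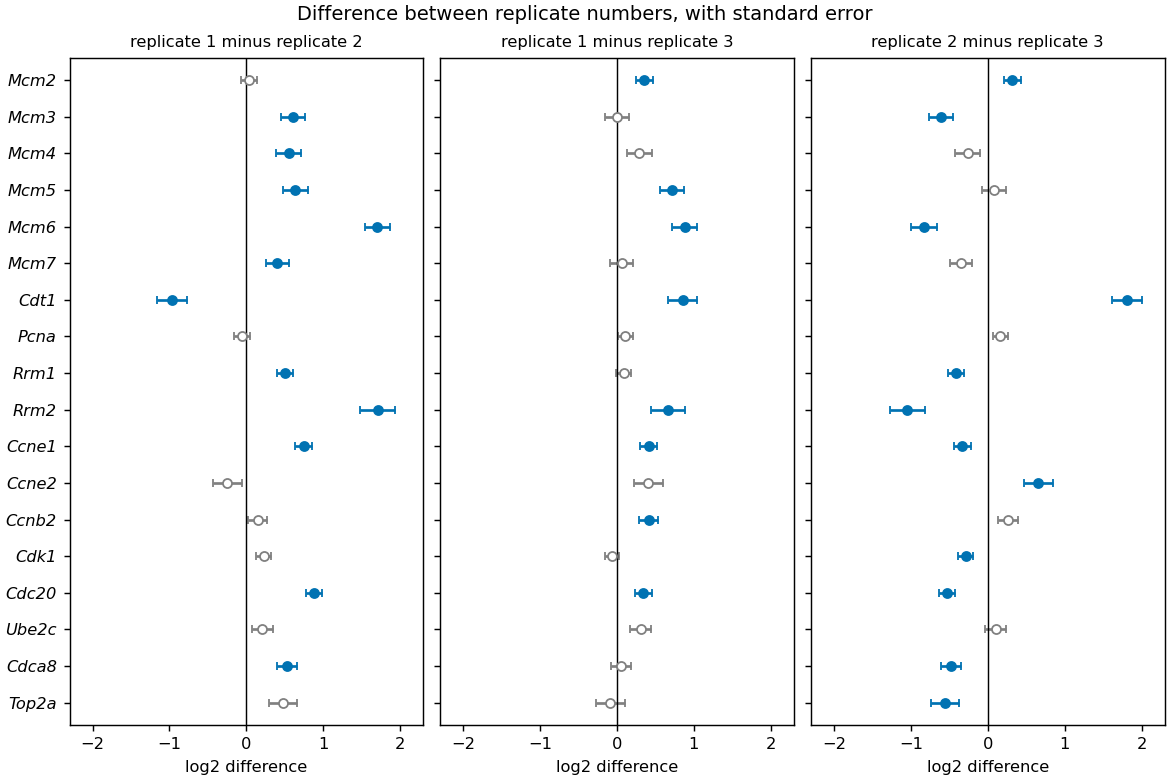
Log2 difference between replicate numbers for the 18 tested genes (x axis; 1 panel per pair of replicate numbers; bars, standard error of the fit). Filled blue points have an adjusted p under 0.05 and open grey points do not; Mcm6 and Rrm2 reach 1.71 in the first panel and Cdt1 reaches 1.82 in the third.

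Mcm6 had the smallest p of the 18 genes. It read 6.25 to 6.72 in replicate 1, 3.95 to 4.95 in replicate 2 and 5.13 to 5.82 in replicate 3. The replicate numbers did not overlap: replicate 1 was highest, replicate 2 lowest. Replicate 1 was higher than replicate 2 by 1.71 ± 0.17 on the log2 scale (SE; adjusted p = 4.36e-05, limma) and higher than replicate 3 by 0.88 ± 0.17 (adjusted p = 0.00232). A second probe set of Mcm6 gave 0.83 for replicate 1 minus replicate 2, with an adjusted p of 0.00875 by limma, and 0.13 for replicate 1 minus replicate 3, which did not pass.

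Rrm2, the subunit of ribonucleotide reductase that limits its activity in S phase, read 6.50, 6.85, 6.61 and 6.92 in replicate 1, 5.25, 5.09, 5.12 and 4.60 in replicate 2 and 6.13, 5.56, 6.71 and 5.84 in replicate 3. Every array of replicate 1 was above every array of replicate 2, and replicate 3 lay between them with an overlap with replicate 1. The difference between replicates 1 and 2 was 1.71 ± 0.22 (adjusted p = 0.000217, limma), and that between replicates 2 and 3 was -1.04 ± 0.22 (adjusted p = 0.00715). A second probe set of Rrm2 gave 1.84 for replicate 1 minus replicate 2 (adjusted p = 0.00252, limma). Rrm1, the other subunit, read 6.79 to 7.10 in replicate 1, 6.37 to 6.55 in replicate 2 and 6.59 to 7.14 in replicate 3. All arrays of replicate 2 were below all others. It was higher in replicate 1 than in replicate 2 by 0.50 ± 0.10 (adjusted p = 0.00276, limma) and lower in replicate 2 than in replicate 3, at -0.42 ± 0.10 (adjusted p = 0.0135). A second Rrm1 probe set gave 0.32 and -0.29 for these contrasts and did not pass (adjusted p = 0.0721 and 0.135, limma).

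Cdt1 ran the other way. It read 6.19, 5.76, 5.94 and 5.80 in replicate 1, 6.46, 6.63, 7.19 and 7.26 in replicate 2 and 4.88, 4.85, 5.68 and 4.87 in replicate 3. Every array of replicate 2 was above every array of replicate 1, and those above every array of replicate 3. Replicate 1 minus replicate 2 was -0.96 ± 0.19 (adjusted p = 0.0025, limma), and replicate 2 minus replicate 3 was 1.82 ± 0.19 (adjusted p = 0.000253). A second Cdt1 probe set gave -0.36 and 0.53 for these contrasts, with adjusted p of 0.0280 and 0.00860 by limma. In dividing cells Cdt1 protein is destroyed when S phase begins; the array measures its transcript.

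Cdc20, the activator of the anaphase-promoting complex, read 5.88, 5.56, 6.05 and 5.71 in replicate 1, 5.16, 4.81, 4.94 and 4.77 in replicate 2 and 5.52, 5.06, 5.71 and 5.53 in replicate 3. All arrays of replicate 1 were above all of replicate 2, with replicate 3 between and overlapping both. The difference between replicates 1 and 2 was 0.88 ± 0.11 (adjusted p = 0.00013, limma), and a second Cdc20 probe set gave 0.24 (adjusted p = 0.0334). Ccne1 read 4.50 to 4.86 in replicate 1, 3.67 to 4.21 in replicate 2 and 4.07 to 4.44 in replicate 3, so that every array of replicate 1 was above those of the other replicate numbers. Its difference between replicates 1 and 2 was 0.75 ± 0.11 (adjusted p = 0.000453, limma), against 0.24 for a second probe set, which did not pass (adjusted p = 0.0830).

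**Figure D4:**
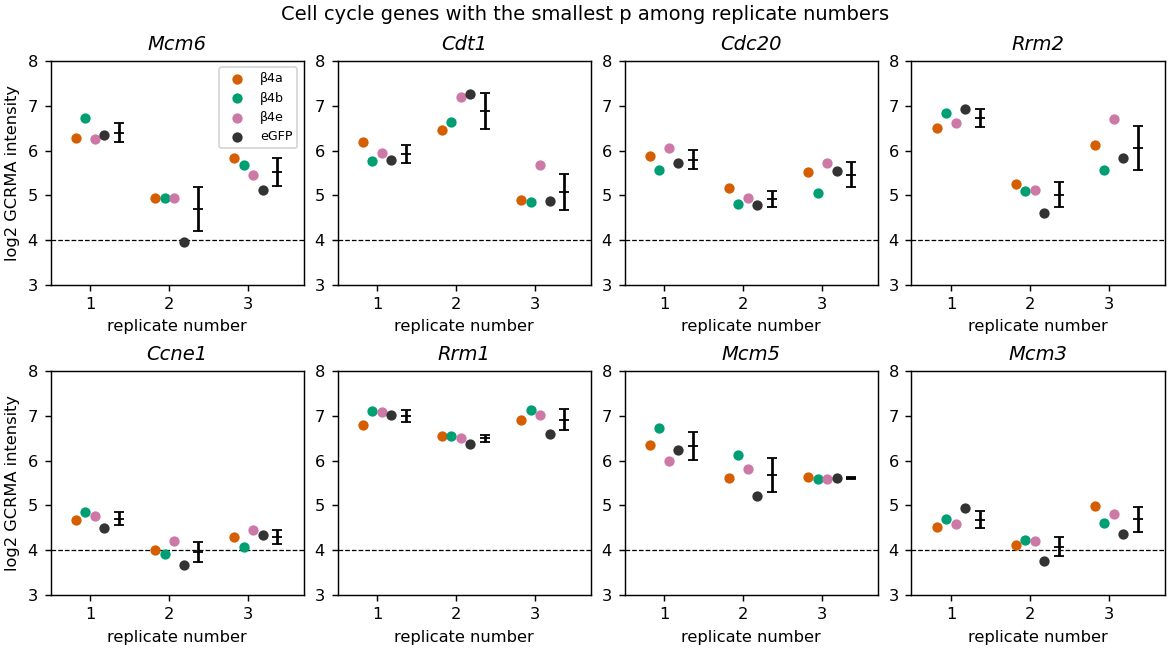
Values of the 8 genes with the smallest p among replicate numbers (y axis, log2 GCRMA intensity; x axis, replicate number; point colours give β4a, β4b, β4e and eGFP; black bars, mean and SD of the 4 arrays; dashed line at 4). Mcm6, Rrm2, Cdc20 and Ccne1 are highest in replicate 1 and lowest in replicate 2, and Cdt1 is highest in replicate 2.

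Of the other Mcm subunits, Mcm5 averaged 6.33 ± 0.31 in replicate 1, 5.69 ± 0.38 in replicate 2 and 5.61 ± 0.02 in replicate 3 (SD, n = 4 each). Replicate 1 was higher than replicate 2 by 0.64 ± 0.16 (adjusted p = 0.00713, limma) and higher than replicate 3 by 0.72 ± 0.16 (adjusted p = 0.00463). The probe set used for Mcm5 is of a type that can bind related sequences, and the other 2 Mcm5 probe sets were dim and differed by -0.04 and 0.01 between replicates 1 and 2. Mcm3 averaged 4.68 ± 0.18 in replicate 1, 4.07 ± 0.21 in replicate 2 and 4.69 ± 0.27 in replicate 3. Replicate 2 was the low one: replicate 1 minus replicate 2 was 0.61 ± 0.16 (adjusted p = 0.00935, limma), and replicate 2 minus replicate 3 was -0.61 ± 0.16 (adjusted p = 0.0163). The other 4 Mcm3 probe sets were dim and not tested, with replicate 1 minus replicate 2 at 0.20, 0.15, -0.04 and 0.04. The arrays of replicates 1 and 2 did not overlap for Mcm3 and did for Mcm5. Of the 32 probe sets used, 4 were of this less specific type (for Mcm4, Mcm5, Mcm6 and Cdc20), and 5 can bind several transcripts (suffix _s_at).

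The remaining tested genes passed in some of the 3 contrasts or in none, and second probe sets passed for some of them. Mcm4 and Mcm7 were higher in replicate 1 than in replicate 2, by 0.55 and 0.40 on the log2 scale (adjusted p = 0.0171 and 0.0421, limma), and Cdca8 by 0.53 (adjusted p = 0.00801). Second probe sets of Mcm4 and Cdca8 gave 0.54 and 0.32 (adjusted p = 0.0035 and 0.0235, limma), and those of Mcm7 gave 0.34, 0.26 and 0.45, of which the second did not pass (adjusted p = 0.0987). Cdca8 was lower in replicate 2 than in replicate 3, at -0.47 (adjusted p = 0.0224, limma). Mcm2 and Ccnb2 were higher in replicate 1 than in replicate 3, by 0.35 and 0.41 (adjusted p = 0.0227 and 0.0238, limma). A second Mcm2 probe set gave 0.24 and did not pass (adjusted p = 0.0988). Mcm2 was also higher in replicate 2 than in replicate 3, by 0.32 (adjusted p = 0.0486, limma), where the second probe set gave 0.31 (adjusted p = 0.0568). Ccne2 was higher in replicate 2 than in replicate 3, by 0.66 (adjusted p = 0.0255, limma). Cdk1 and Top2a were lower in replicate 2 than in replicate 3, at -0.29 and -0.56 (adjusted p = 0.0431 and 0.0428, limma). The other 2 Top2a probe sets were dim and not tested, at -0.14 and 0.11. Pcna differed by -0.06, 0.11 and 0.16 in the 3 contrasts and Ube2c by 0.21, 0.31 and 0.10, without passing.

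Over all 32 genes, dim ones included, replicate 1 was above replicate 2 for 26 genes, with a median of 0.26, against 53.9% of all genes and a median of 0.02. Without the eGFP array of replicate 2 the count was 25. Replicate 1 was above replicate 3 for 23 of the 32 genes (median 0.13, all genes 60.8%), and replicate 2 above replicate 3 for 10 (median -0.25, all genes 55.1%). Replicate 2 had the lowest mean for 21 of the 32 genes (65.6%), against 32.8% of all genes. The order replicate 1, then 3, then 2 held for 13 of the 32 (40.6%), against 23.1% of all genes. All 4 arrays of replicate 1 were above all 4 of replicate 2 for 13 of the 32 genes, where 20.6% of all genes were, and the reverse held for 2, Cdt1 and Tyms, where 11.4% of all genes were. Among the 13 were 5 genes that were not tested because they were dim: Bub1, Birc5, Aurkb, Cenpa and Kif11. Birc5 had no other probe set, and the other probe sets of the rest were dim too. In these, replicate 1 minus replicate 2 was -0.01 for Bub1, 0.24 for Aurkb, -0.22 and 0.26 for Cenpa and -0.03 and 0.17 for Kif11. Bub1 read 3.35, 3.59, 3.57 and 3.72 in replicate 1, against 3.22, 2.99, 2.65 and 2.53 in replicate 2, all below 4.

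**Figure D5:**
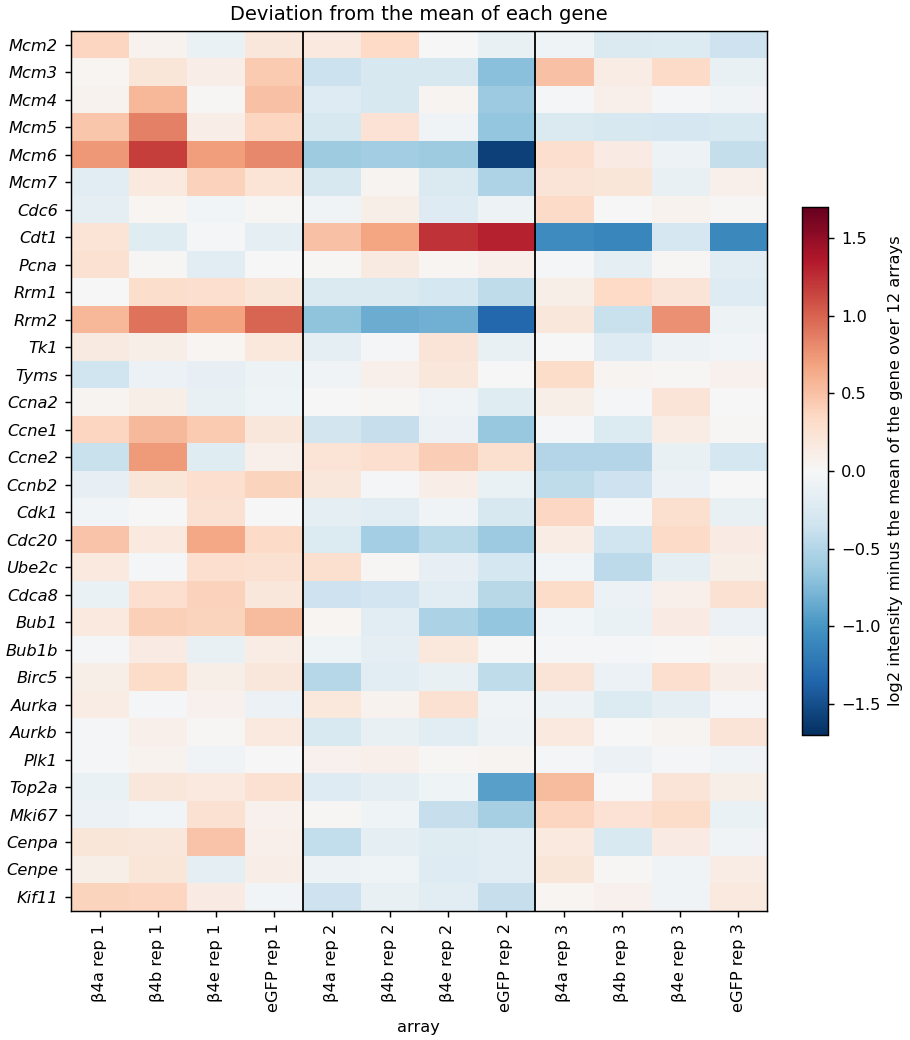
Deviation of each array from the mean of the gene over the 12 arrays (colour, log2; rows, the 32 genes by role; columns, arrays ordered by replicate number and within it β4a, β4b, β4e and eGFP; black lines part the replicate numbers). Replicate 1 is mostly red and replicate 2 mostly blue. Cdt1 is red in replicate 2 and blue in replicate 3, and the eGFP array of replicate 2 holds the deepest blue for Mcm6, Rrm2 and Top2a.

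Other genes of the cycle were read from lists drawn up from general knowledge. Here too, genes that passed the filter through the arrays of 1 replicate number had to differ. The counts of tested genes in these lists are therefore a description. Of 30 other replication genes with a probe set, 25 were tested and 18 differed among replicate numbers; replicate 1 minus replicate 2 called 15 higher and 2 lower. These are 72%, 60% and 8% of the tested genes of the list, where over all tested genes with 1 probe set each 62.4% differed, 33.9% were higher and 16.4% lower. Cdc7, the kinase that fires licensed origins, was lower in replicate 1: it read 8.32 to 8.72 in replicate 1, 9.58 to 10.11 in replicate 2 and 8.67 to 9.22 in replicate 3 (-1.39 for replicate 1 minus replicate 2, adjusted p = 1.45e-05, limma). Prim1, a primase subunit, read 6.18 to 6.88 in replicate 1, 6.45 to 7.10 in replicate 2 and 5.55 to 6.20 in replicate 3 and was higher in replicate 2 than in replicate 3 by 0.88 (adjusted p = 0.000623, limma). Slbp, which binds the stem-loop of histone messages, was higher in replicate 1 than in replicate 2 by 0.58 (adjusted p = 0.001, limma), and Rpa1, a subunit of the protein that covers single-stranded DNA, was higher in replicate 1 than in replicate 3 by 0.56 (adjusted p = 0.000647).

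Of 45 other mitosis genes, 29 had a mean below 4. Of the 19 tested, 18 differed among replicate numbers; replicate 1 minus replicate 2 called 14 higher and 2 lower. These are 94.7%, 73.7% and 10.5% of those tested, against the same 62.4%, 33.9% and 16.4% over all tested genes. Racgap1 passed the filter only through arrays of replicate 1 and Ccnf only through arrays of replicate 2, so these shares are a description. Pttg1, the securin that guards sister chromatid cohesion, read 5.53 to 5.89 in replicate 1, 4.55 to 4.97 in replicate 2 and 4.50 to 5.28 in replicate 3 (0.87, adjusted p = 0.000108, limma). Ect2, which sets up the cleavage furrow, read 4.45 to 4.78 in replicate 1, 3.49 to 4.07 in replicate 2 and 4.02 to 4.56 in replicate 3 (0.83, adjusted p = 0.000465, limma). Spc25, a kinetochore protein, was higher in replicate 1 than in replicate 2 by 0.85 (adjusted p = 0.000676, limma). Anln, anillin of the contractile ring, was low in replicate 3: it read 4.64 to 5.24 in replicate 1, 4.42 to 5.08 in replicate 2 and 3.31 to 3.999 in replicate 3 (1.37 for replicate 1 minus replicate 3, adjusted p = 8.02e-05, limma). Bub3, a checkpoint protein and the highest of this list by its probe set, was lower in replicate 1 than in replicate 2, at -0.36 (adjusted p = 0.0074, limma).

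Of 21 genes of G1 cyclins, their kinases, E2F and Rb, 17 were tested and 10 differed among replicate numbers; replicate 1 minus replicate 2 called 9 higher and 0 lower. The share that differed, 58.8%, was below the 62.4% of all tested genes, and 52.9% were higher, against 33.9% of all tested genes. E2f3, a transcription factor of S phase genes, read 8.35, 8.30, 8.42 and 8.32 in replicate 1, 5.96, 6.43, 5.999 and 6.12 in replicate 2 and 7.29, 7.24, 7.22 and 7.68 in replicate 3. The replicate numbers did not overlap, in the order 1, 3, 2, and replicate 1 minus replicate 2 was 2.22 (adjusted p = 3.8e-06, limma). Rbl2, the pocket protein p130 of resting cells, was higher in replicate 1 than in replicate 2 by 0.56 (adjusted p = 0.000875, limma), and E2f5, a repressive E2F, by 0.46 (adjusted p = 0.00565). Ccnd1, cyclin D1, read 11.26 to 11.46 in replicate 1, 10.61 to 11.40 in replicate 2 and 10.22 to 10.78 in replicate 3 and was higher in replicate 1 than in replicate 3 by 0.82 (adjusted p = 0.00137, limma).

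Of 7 CDK inhibitor genes, 5 were tested and 4 differed among replicate numbers, and 3 were called higher and 1 lower in replicate 1 than in replicate 2, where 62.4%, 33.9% and 16.4% of all tested genes were so called. Cdkn2c (p18) read 6.76 to 7.94 in replicate 1, 5.17 to 5.67 in replicate 2 and 5.97 to 6.21 in replicate 3. Replicate 1 was above the others on all 4 arrays, by 1.89 over replicate 2 (adjusted p = 5.85e-05, limma). Cdkn1a (p21), an inhibitor induced by DNA damage, was highest in replicate 2: it read 9.69 to 11.38 in replicate 1, 11.41 to 11.90 in replicate 2 and 10.24 to 10.73 in replicate 3, and replicate 1 minus replicate 2 was -1.37 (adjusted p = 0.00435, limma). The 11.38 was the β4a array. The β4b, β4e and eGFP arrays of replicate 1 read 9.73, 9.69 and 10.02, below every array of replicate 3. Cdkn2b (p15) was lowest in replicate 3, at 5.58 to 6.07 in replicate 1, 4.85 to 5.10 in replicate 2 and 3.91 to 4.53 in replicate 3 (1.56 for replicate 1 minus replicate 3, adjusted p = 3.66e-05, limma). Cdkn2d (p19) was higher in replicate 1 than in replicate 2 by 0.70 (adjusted p = 0.013, limma), and Cdkn1b (p27), the highest of this list by its probe set, differed by 0.18 without passing.

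Of 9 genes of Ara-C uptake and metabolism, 6 were tested and 4 differed among replicate numbers, and 2 were called higher and 1 lower in replicate 1 than in replicate 2. These shares of 66.7%, 33.3% and 16.7% are close to the 62.4%, 33.9% and 16.4% of all tested genes. Dck, the kinase that activates Ara-C, read 11.24 to 11.63 in replicate 1, 10.95 to 11.22 in replicate 2 and 10.90 to 11.05 in replicate 3 and was higher in replicate 1 than in replicate 2 by 0.28 (adjusted p = 0.0389, limma). Slc29a2, a nucleoside transporter, was lower in replicate 1, at -0.65 (adjusted p = 0.00649, limma), and Nt5c2, a nucleotidase, was higher, at 0.32 (adjusted p = 0.019). Cmpk1, which adds the second phosphate, was higher in replicate 1 than in replicate 3 by 0.27 (adjusted p = 0.0166, limma). None of the genes tested in these 5 lists passed against eGFP for any variant, with or without the block.

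Markers of other cell types moved with the replicate numbers too. The summed log2 level of 8 oligodendrocyte lineage markers was 61.7 to 62.2 in replicate 1, 55.6 to 58.4 in replicate 2 and 53.7 to 57.4 in replicate 3. That of 8 fibroblast and meningeal markers was 48.4 to 50.2 in replicate 1, 43.0 to 45.1 in replicate 2 and 39.4 to 41.9 in replicate 3, with 1 marker below 4 on all arrays. The step from replicate 2 to replicate 3 came with Dcn. It read 7.59 to 9.34 in replicate 1, 6.81 to 7.03 in replicate 2 and 3.49 to 4.18 in replicate 3. By their means the order 1, 2, 3 held for 2 of the 8 markers, and the order 1, 3, 2 for 4. The order was 2, 3, 1 for 1 marker and 3, 2, 1 for 1 marker, with replicate 1 lowest. The 7 measured granule progenitor markers summed to 36.8 to 38.1 in replicate 1, 33.4 to 34.0 in replicate 2 and 34.4 to 34.7 in replicate 3. This order came with Mycn: without it the other 6 summed to 30.5 to 31.2 in replicate 1, 29.98 to 30.9 in replicate 2 and 29.3 to 29.6 in replicate 3, with replicates 1 and 2 overlapping and replicate 3 lowest. Mycn, a transcription factor of dividing progenitors, read 6.30 to 6.88 in replicate 1, 3.04 to 3.41 in replicate 2 and 4.90 to 5.47 in replicate 3 and differed by 3.19 between replicates 1 and 2 (adjusted p = 2.94e-06, limma). Astrocyte markers summed to 102 to 105 in replicate 1, 92.1 to 103 in replicate 2 and 97.5 to 115 in replicate 3, and the 10 microglia and macrophage markers to 47.9 to 51.2 in replicate 1, 48.2 to 51.1 in replicate 2 and 51.0 to 53.4 in replicate 3. The 5 endothelial markers summed to 16.4 to 17.6 over all arrays, and 4 of the 5 were below 4 on every array. Mature granule cell markers summed to 135 to 138 in replicate 1, 133 to 135 in replicate 2 and 133 to 135 in replicate 3. Against eGFP, all 11 astrocyte markers had a difference above 0 with β4a, β4b and β4e (medians 0.50, 0.55 and 0.50). Of all 18193 genes 51.1%, 48.7% and 54.7% were above 0. No astrocyte marker passed, with or without the block. The low eGFP array of replicate 2 enters these differences. In replicate 1 the eGFP array had the highest astrocyte sum, 105 against 102, 102 and 104 with β4a, β4b and β4e. The part of all these cell types in the differences between replicate numbers or from eGFP was not tested.

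RNA quality was read from the 3′ and 5′ control probe sets. The 3′ minus 5′ difference of Actb was 0.820 to 1.09 in replicate 1, 0.854 to 1.02 in replicate 2 and 0.852 to 0.959 in replicate 3 (log2). For Gapdh it was 0.0939 to 0.403 in replicate 1, 0.0503 to 0.121 in replicate 2 and -0.0527 to 0.0660 in replicate 3. The Actb ranges overlapped, and for Gapdh every array of replicate 1 was above every array of replicate 3. The part of RNA quality in the differences between replicate numbers was not tested.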

How the data were processed

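Per the labels' protocols, RNA was extracted with Trizol, 500 ng were labelled with a 3′ in vitro transcription kit, and 12 Affymetrix mouse arrays with 3′ probe sets were hybridised, 1 per sample. The deposited values are log2 intensities, made by the authors with GCRMA per the submitters' processing notes (version not stated); they were used as deposited. They ran from 1.27 to 15.0. Array data hold no read depth, so the number of arrays limits the precision.

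Of 45101 probe sets, 64 controls were left out, and 23044 above 4 in at least 3 of 12 arrays were tested. Gene names came from the platform annotation: 34945 probe sets had 1 symbol. limma 3.58.1 in R 4.3.3 (lmFit, eBayes, two-sided p, Benjamini-Hochberg over the 23044, threshold 0.05) fitted the groups alone (8 residual degrees of freedom), and, as an alternative, with the replicate number as a block (6). Contrasts between replicate numbers used group and replicate number together. Deviations from the group means correlated at 0.699 to 0.884 in the 18 pairs of arrays that share a number and at -0.741 to 0.146 in pairs of different number and group, so the numbers pair the arrays. The scripts were tested on simulated data. Alternatives were other filters, quantile normalization, the mean of all probe sets of a gene, no group term, and leaving out each array.

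Values were given for the 6 genes with the highest mean, the 3 with the smallest blocked p for each variant, and the 8 with the smallest p among replicate numbers. They were printed by array, or as a range or mean for each replicate number. For a gene named for a variant they are those of that variant and of eGFP. From each further gene list up to 4 with the smallest p among replicate numbers and the highest member were named. The genes, lists and rules were chosen with earlier results of these data known. Promoters came from RefSeq on build GRCm38.p6.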

Additional observations from a re-analysis of the deposited data

Results flagged for a closer look

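Within the 4 arrays of a replicate number, 6 of 96 sets of 4 values (32 genes in 3 replicate numbers) had 1 array far from the others: its gap to the nearest, as a share of the whole range, was above Dixon's 95% critical value. Chance alone gives about 1 in 20.

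The eGFP array of replicate 2 was the low one for Mcm6, at 3.953 against 4.932 to 4.948 in the other 3 arrays, and for Top2a, at 3.003 against 3.715 to 3.85. Cenpa was low in the β4a array of replicate 2, at 3.318 against 3.539 to 3.583. In the other direction Cdt1 was high in the β4e array of replicate 3, at 5.676 against 4.849 to 4.883. Cdk1 was high in the β4e array of replicate 1, at 4.302 against 4.002 to 4.049, and Cdc6 in the β4a array of replicate 3, at 3.37 against 3.049 to 3.101. The values of Mcm6, Top2a, Cenpa and Cdc6 in these arrays lie below 4.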

How the results depend on the processing

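Against eGFP, 0 of the 18 tested genes passed in any of the 5 tests under any alternative run, the replicate block included (0 with the replicate block, also when each array was left out in turn, which was added after the data were seen). Between replicates 1 and 3, 8 genes were called, and 5 with the filter at 5 or with the mean of all probe sets. Leaving out 1 array gave 4 to 9: 4 without replicate 3 of β4a or of β4b, and 5 without replicate 1 of eGFP or of β4b. Between replicates 2 and 3 the 12 genes became 6 with the filter at 5, and 5 to 11 when 1 array was left out: 5 without β4a replicate 3, 6 without replicate 2 of eGFP or of β4a, 7 without eGFP replicate 3 or β4e replicate 2. Any difference among replicate numbers was called for 15 genes, 8 with the filter at 5, and 9 (without β4a replicate 3) to 15 when 1 array was left out. The filter at 5 tests fewer genes; otherwise the cause was not tested. Replicate 1 against replicate 2 called 11 genes, and 9 to 13 when 1 array was left out. Genes with a mean below 4 numbered 15, against 17 with the mean of all probe sets and 22 below 5. Among the 32 genes, those above 0 against eGFP numbered 21 for β4a, 22 for β4b and 24 for β4e, 20, 15 and 17 without any array of replicate 2, and 9, 15 and 12 without its eGFP array alone, which breaks the balance of replicate numbers; both were added after the data were seen. For named genes, signs turned only for small or unpassed differences: Mcm3 between replicates 1 and 3 (0.0442 after quantile normalization, -0.19 to 0.12 with 1 array out), Mcm6 for β4a (-0.0621 to 1.14) and β4e (-0.19 to 1.01), Rrm1 between replicates 1 and 3 (-0.0052 to 0.16) and Mcm5 between replicates 2 and 3 (-0.0647 to 0.22). The Mcm6 values against eGFP came from fits without the block, where leaving out 1 array compares unequal sets of replicate numbers. For single named genes 613 other values kept direction and side of the threshold and 32 no longer passed. Dim probe sets near 4 limit what these arrays can show.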
